A study of Mus musculus with 9 samples.

Results

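The 10 genes described here encode sclerostin and other modulators of Wnt signalling: Sost, Dkk2, Dkk3, Sfrp1, Sfrp2, Sfrp4, Frzb, Wnt5a, Axin2 and Lrp4. They were chosen by name among the 18830 genes of the files, with their levels in these aortas already known, so their levels and fold changes are a description and carry no test. All 10 passed the filter on low counts.

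The study sequenced RNA of suprarenal abdominal aorta from ApoE-knockout mice, which are prone to atherosclerosis, in 3 groups of 3 libraries. One group was infused with angiotensin II (Ang II), a hormone that constricts vessels and that in such mice gives rise to aneurysms of the abdominal aorta, at 1000 ng/kg/min from an osmotic pump for 28 days, and another the same dose for 14 days. The third was a sham control on the same ApoE-knockout background, named saline in the series text, whose day of harvest is not given in the sources used here. Age, sex and whether each library is 1 mouse are not given either, so the spread between libraries may be partly technical. The library titles call the tissue muscle and the source field calls it aorta.

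Wnt proteins bind Frizzled receptors together with the co-receptors Lrp5 and Lrp6, and in the canonical branch this lets beta-catenin enter the nucleus and act with TCF/LEF factors. Secreted antagonists work at the cell surface. Sclerostin and most Dickkopf (Dkk) proteins bind the co-receptors, whereas secreted Frizzled-related proteins (SFRPs) bind the Wnt ligands themselves. Sost is best known from osteocytes, where sclerostin limits bone formation, and it is also expressed in smooth muscle of the aorta.

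The libraries held between 9609690 and 14923936 expected counts. Levels are given in CPM, the usual depth-scaled count unit, with libraries scaled to each other by TMM (trimmed mean of M values), with group values as mean ± SD of 3 libraries. Apoe, the targeted gene, was read at 23.0, 171 and 270 CPM at 28 days, at 162, 648 and 160 CPM at 14 days and at 22.5, 87.5 and 70.3 CPM in sham replicates 1 to 3, and the files do not show which part of it the reads cover. The 10 smooth muscle markers summed to 2337 to 7753 CPM at 28 days, 4009 to 18490 CPM at 14 days and 10902 to 33296 CPM in sham, with 0 of them at 0 throughout a group. Skeletal muscle markers summed to 13528, 4461 and 95.1 CPM in 28-day replicates 1 to 3 and to at most 43.0 CPM in the other 6 libraries. Nerve, ganglion and Schwann cell markers were above 2000 CPM in 28-day replicate 2, 14-day replicate 1 and sham replicate 2, at 2348, 2124 and 5098 CPM, and at most 1076 CPM elsewhere. The values below are therefore also given without those 3 nerve-rich libraries where they moved by more than the spread between replicates. RNA of whole tissue was measured, so fewer cells of a type and less RNA per cell cannot be told apart.

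The upstream windows of 3 of these genes are shown: Sost, because its level differed most between groups, and Dkk2 and Frzb, because their windows hold a TCF/LEF core. Each is the 250 bases before the start that RefSeq's GRCm38.p6 table uses for the gene, 5′ to 3′ on the gene's strand, at chr11:101967016-101967265 (minus strand), chr3:132085042-132085291 (plus strand) and chr2:80447397-80447646 (minus strand). The Dkk2 start in that table lies inside the wider gene span given for Dkk2 below, so the last bases of its window fall within that span. Capitals mark matches to the TCF/LEF core, searched as CTTTGA or CTTTGT on either strand, and to the TATA box, searched as TATAAA; these motifs do not overlap each other here.
Sost: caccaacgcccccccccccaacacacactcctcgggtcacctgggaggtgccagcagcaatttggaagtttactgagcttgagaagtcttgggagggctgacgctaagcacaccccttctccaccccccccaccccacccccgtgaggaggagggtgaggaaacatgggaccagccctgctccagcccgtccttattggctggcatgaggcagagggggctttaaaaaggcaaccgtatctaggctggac
Dkk2: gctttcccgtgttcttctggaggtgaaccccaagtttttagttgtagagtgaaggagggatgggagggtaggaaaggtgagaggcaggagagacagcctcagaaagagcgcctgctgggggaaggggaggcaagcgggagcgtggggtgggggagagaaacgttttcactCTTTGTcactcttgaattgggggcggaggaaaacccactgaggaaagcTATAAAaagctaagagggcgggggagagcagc
Frzb: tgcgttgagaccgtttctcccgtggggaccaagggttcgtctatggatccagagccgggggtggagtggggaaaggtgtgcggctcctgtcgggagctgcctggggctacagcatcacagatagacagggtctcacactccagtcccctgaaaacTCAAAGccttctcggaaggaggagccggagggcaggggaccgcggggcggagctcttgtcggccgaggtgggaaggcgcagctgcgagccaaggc
The table held a window for 5 of the 10 genes, the others being Sfrp2 and Axin2. A TCF/LEF core stood in the windows of Dkk2 and Frzb, and in 27.6% of the 32851 windows of that length in the table. The TATA box, also searched on either strand, was found in the Dkk2 window and in 12.4% of all windows. The CArG box, the site read by serum response factor in smooth muscle genes, was in 0 of the 5 windows and in 1.47% of all. A match is a description of these letters and not evidence of binding.

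Sost was lower after Ang II, and further from sham at 28 days than at 14. Its level (Entrez 74499, ENSMUSG00000001494, GRCm38.p6 chromosome 11, 101962458 to 101967015) was 24.6, 12.8 and 9.79 CPM in 28-day replicates 1 to 3, 89.6, 25.9 and 133 CPM in the 14-day libraries, and 414, 114 and 320 CPM in sham. All 28-day libraries lay below all 14-day and all sham libraries, while 14-day replicate 3 lay above sham replicate 2. The lowest of these values still rested on 129 reads. The means were 15.7 ± 7.84 CPM at 28 days, 82.8 ± 53.7 CPM at 14 days and 283 ± 153 CPM in sham. The 28-day mean was 18.0-fold lower than the sham mean (log2 fold change -4.17 ± 0.76 SE), which placed Sost at rank 9 from the lowest among 14751 genes tested. The 14-day mean was 3.41-fold lower than in sham (log2 -1.77 ± 0.68), and the 28-day mean was 5.26-fold lower than at 14 days (log2 -2.4 ± 0.70).

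**Figure D1:**
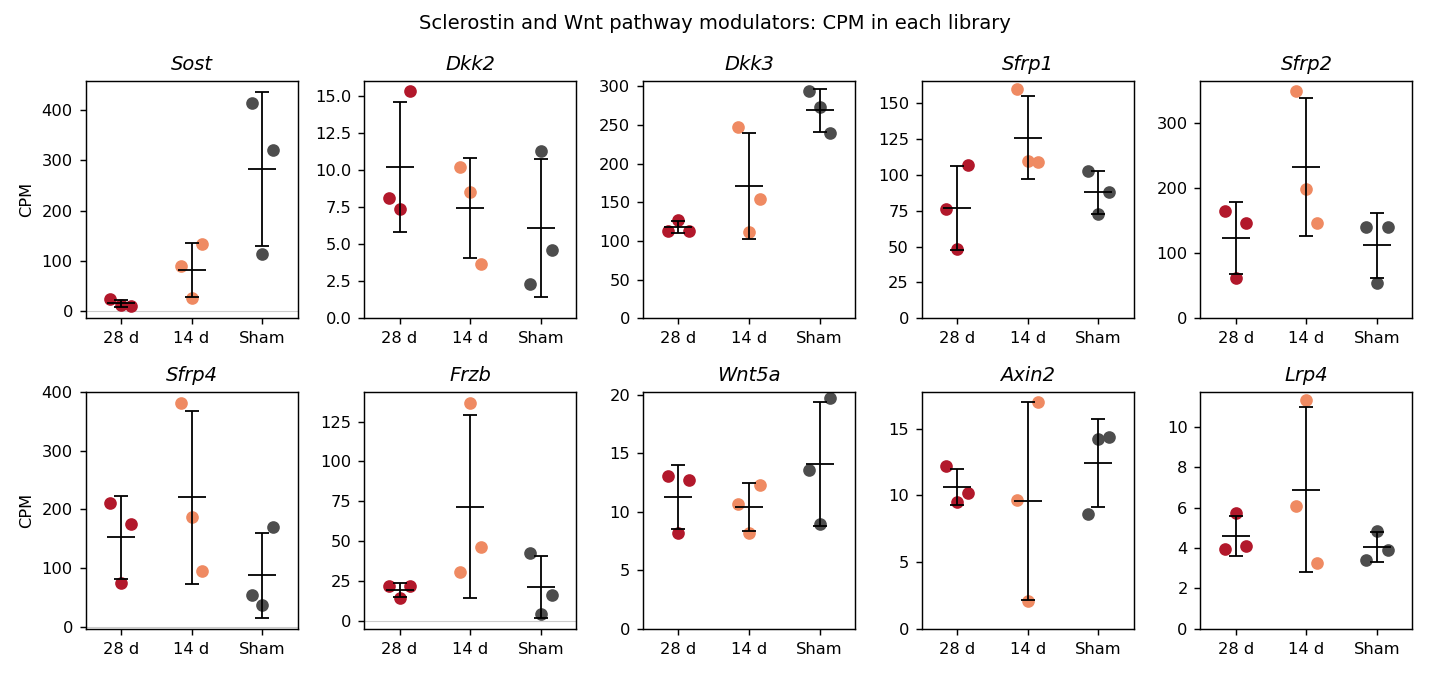
CPM of the 10 genes in each library, with 28-day Ang II, 14-day Ang II and sham from left to right in every panel; points are libraries, and bars are the mean ± SD of 3. The 28-day Sost values lie between 9.79 and 24.6 CPM, below every sham library, and the single high Frzb value of 137 CPM is 14-day replicate 2.

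Smooth muscle markers were lower in the same libraries. Their mean level was 8.56, 7.15 and 6.74 log2 CPM in 28-day replicates 1 to 3, 9.55, 7.23 and 9.16 log2 CPM at 14 days and 10.43, 8.91 and 9.93 log2 CPM in sham, and 9 of the 10 had a lower mean in each Ang II group than in sham. Acta2, smooth muscle actin, averaged 1632 CPM at 28 days and 9446 CPM in sham, which is 5.78-fold lower, and Itga8, an integrin of smooth muscle, averaged 87.1 CPM and 875 CPM, which is 10.1-fold lower. When the mean of the smooth muscle list was subtracted in each library, Sost was -3.93, -3.45 and -3.43 log2 at 28 days, -3.06, -2.52 and -2.11 log2 at 14 days and -1.73, -2.07 and -1.61 log2 in sham. The groups did not overlap on this relative scale, which was chosen after the levels were seen. The list includes Des, which skeletal muscle also expresses, and skeletal muscle markers summed to 13528, 4461 and 95.1 CPM in 28-day replicates 1 to 3. The part of skeletal muscle in the list mean of those libraries was not tested. The difference from sham was -1.80 log2 at 28 days and -0.76 log2 at 14 days. The subtraction moves most genes up, since the markers were lower: of all genes tested, 72.7% lay higher and 0.122% lower without overlap at 28 days against sham on that scale, 13.5% higher and 0.332% lower at 14 days, and 8.93% higher and 0.0814% lower at 28 days against 14 days. The part of smooth muscle content in the lower Sost level was not tested.

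**Figure D2:**
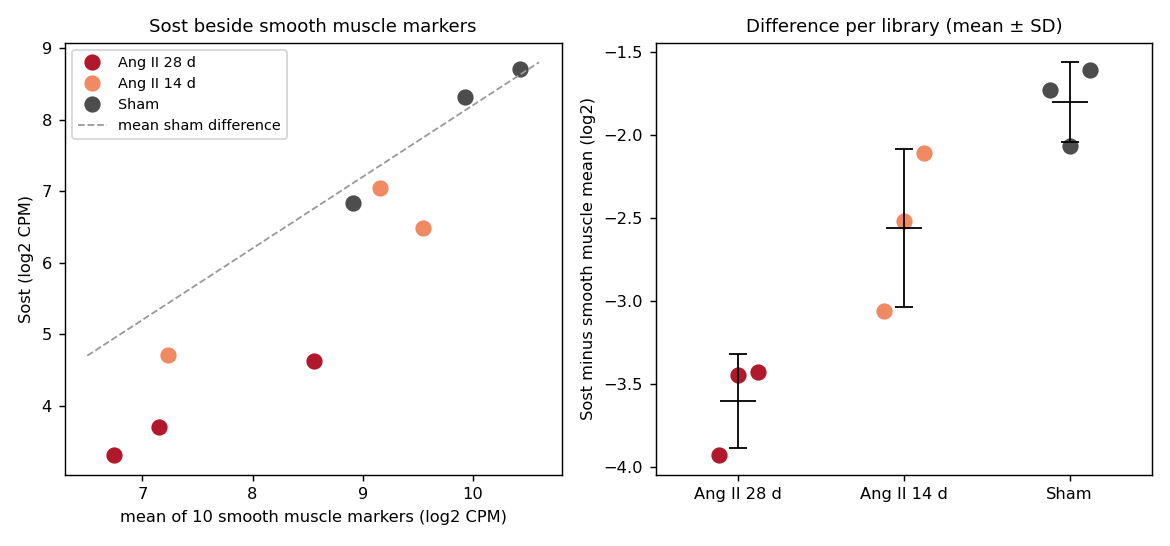
Left, the Sost level against the mean of 10 smooth muscle markers, both in log2 CPM, 1 point per library, with a dashed line at the mean sham difference of -1.80 log2. Right, Sost minus that mean per library, with mean ± SD; the 28-day points lie between -3.93 and -3.43, all below the 14-day and sham points.

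Several genes that define osteocytes and mature osteoblasts were near 0 in these aortas, and others of the bone list were not. Bglap, which encodes osteocalcin, was at most 0.152 CPM in any library, and Mepe and Dmp1, matrix proteins of osteocytes, were at most 0.072 and 0.219 CPM. Phex, a peptidase of osteocytes, was between 0.287 and 3.29 CPM. Both Ang II groups lay below sham without overlap for Phex, from as few as 4 reads at 28 days. Its log2 difference from sham was -1.66 ± 0.55 at 28 days and -1.33 ± 0.54 at 14 days. Runx2, a transcription factor of early osteoblasts and chondrocytes, was 3.06, 6.31 and 6.38 CPM at 28 days, 3.78, 17.6 and 6.38 CPM at 14 days and 2.88, 1.07 and 1.51 CPM in sham. Both Ang II groups lay above sham without overlap for Runx2, by 1.53 ± 0.66 log2 at 28 days and 2.35 ± 0.67 log2 at 14 days. Alpl, the alkaline phosphatase gene that bone and other tissues express, averaged 27 ± 15.7 CPM at 28 days, 15.7 ± 8.87 CPM at 14 days and 26.5 ± 8.93 CPM in sham, with overlap. The 13 cartilage and bone markers summed to 706 to 1661 CPM at 28 days, 330 to 8050 CPM at 14 days and 49.1 to 646 CPM in sham, with 1 marker at 0 throughout the 28-day group and 1 throughout the sham group. Spp1, the osteopontin gene that macrophages also express, was 575 to 1513 CPM at 28 days, 221 to 7425 CPM at 14 days and 11.7 to 578 CPM in sham. It made up most of the marker sum in every Ang II library. Of the 13 markers, 7 averaged higher than sham and 5 lower at 28 days, and 9 higher and 4 lower at 14 days.

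The genes whose pattern over the 9 libraries was most like that of Sost were Npnt, Cacnb2 and Scube3, with Pearson's r of 0.99, 0.98 and 0.98 for log2 CPM. These are the highest of 14270 genes searched and carry no p for that reason. Npnt, which encodes the integrin ligand nephronectin, averaged 52.0 ± 28.0 CPM at 28 days, 175 ± 95.8 CPM at 14 days and 454 ± 216 CPM in sham. Scube3, a secreted EGF-domain protein, averaged 18.9 ± 6.07 CPM at 28 days, 57.9 ± 25 CPM at 14 days and 181 ± 81.7 CPM in sham.

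The Dickkopf members differed from each other. Dkk3, a divergent family member that does not act as a plain Lrp antagonist, was 113, 127 and 113 CPM at 28 days, 247, 112 and 154 CPM at 14 days and 294, 273 and 239 CPM in sham (Entrez 50781, chromosome 7, 112116019 to 112159482). The 28-day libraries lay close together and all below sham, while 14-day replicate 1 lay within the sham range. The 28-day mean was 2.28-fold lower than sham (log2 -1.19 ± 0.28), and the 14-day mean 1.57-fold lower (log2 -0.65 ± 0.28). Relative to the mean of the smooth muscle markers the direction of Dkk3 turned, to differences from sham of 1.09 log2 at 28 days and 0.39 log2 at 14 days, with overlap. On that scale Sost was the only one of the 10 with a negative difference from sham at either time, but it was not alone among all genes. The pathway genes Wif1 and Lgr6, described below, stood at -1.33 and -0.85 log2 from sham at 28 days, with overlap. At 14 days Wif1 stood at -0.79 log2 with overlap and Lgr6 at -1.41 log2 without overlap. The genes most like Dkk3 were Mcam, an adhesion molecule of the vessel wall, Tmtc2 and Tmem47, at r of 0.99, 0.98 and 0.98 over 9 libraries. Dkk2, which binds Lrp5 and Lrp6 and can antagonise or, in some settings, activate the canonical branch, was 8.10, 7.38 and 15.3 CPM at 28 days, 10.2, 8.5 and 3.67 CPM at 14 days and 2.34, 11.3 and 4.63 CPM in sham (Entrez 56811, chromosome 3, 132085266 to 132180304). Its 3 groups overlapped, with log2 differences from sham of 0.75 ± 0.63 at 28 days and 0.28 ± 0.62 at 14 days. Without the 3 nerve-rich libraries the 28-day difference was 1.69 log2. Leaving out 1 library gave 0.36 log2 at 28 days and -0.10 log2 at 14 days without sham replicate 1, and 1.55 and 1.09 log2 without sham replicate 2. Dkk1, which was not among the 10, was 0 to 12 CPM at 28 days, 0.072 to 11.5 CPM at 14 days and 0.089 to 21 CPM in sham, and its highest library in each group was a nerve-rich one.

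The 4 SFRP genes among the 10 had their highest means at 14 days. Sfrp5, an SFRP gene outside the 10, had its lowest mean there, at 38.1 ± 31.3 CPM at 28 days, 26.2 ± 26.9 CPM at 14 days and 49.4 ± 71.6 CPM in sham, with overlapping groups and its highest library in each group a nerve-rich one. Sfrp2 was 165, 61.5 and 147 CPM at 28 days, 350, 199 and 146 CPM at 14 days and 141, 54.8 and 140 CPM in sham (Entrez 20319, chromosome 3, 83765750 to 83774314). Every 14-day library lay above every sham library, the nearest pair being 146 and 141 CPM, and the 14-day mean was 2.07-fold the sham mean (log2 1.05 ± 0.52). Sfrp1 was also without overlap, at 160, 110 and 109 CPM at 14 days against 103, 72.6 and 88.2 CPM in sham, 1.44-fold higher (log2 0.52 ± 0.31), and it was 76.1, 48.2 and 107 CPM at 28 days (Entrez 20377, chromosome 8, 23411383 to 23449632). Without the 3 nerve-rich libraries, 1 of which is the highest 14-day library for both genes, the 14-day differences were 0.33 log2 for Sfrp2 and 0.23 log2 for Sfrp1. Sfrp4 was 211, 74.8 and 175 CPM at 28 days, 382, 187 and 94.6 CPM at 14 days and 54.9, 37.6 and 171 CPM in sham, and all groups overlapped (Entrez 20379, chromosome 13, 19623175 to 19632825). Its log2 difference from sham was 0.80 ± 0.71 at 28 days and 1.33 ± 0.72 at 14 days, with 0.34 at 14 days without the nerve-rich libraries. Leaving out 1 library at a time moved its 28-day difference between 0.44 log2 without sham replicate 2 and 1.78 log2 without sham replicate 3. The 14-day difference moved between 0.68 log2 without 14-day replicate 1 and 2.31 log2 without sham replicate 3.

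Frzb, also called Sfrp3, was 21.9, 14.5 and 22.0 CPM at 28 days, 30.8, 137 and 46.6 CPM at 14 days and 42.5, 4.51 and 16.4 CPM in sham (Entrez 20378, chromosome 2, 80411970 to 80447396). The 28-day libraries lay below all 14-day libraries, and the sham libraries overlapped both groups. The 14-day mean was 3.39-fold the sham mean (log2 1.76 ± 0.81), and the 28-day mean was 3.68-fold lower than the 14-day mean (log2 -1.88 ± 0.81). Without 14-day replicate 2 these differences were 0.90 and -0.98 log2, and without sham replicate 1 the 14-day difference from sham was 2.78 log2 and the 28-day difference 0.90 log2, beside -0.11 ± 0.79 with all libraries. The 14-day replicate 2 library also had the highest macrophage and monocyte marker sum, at 10886 CPM against 256 to 2883 CPM in the other 8 libraries, and the part of those cells in the Frzb level was not tested. The 10 fibroblast markers, for cells that are a usual source of SFRPs, summed to 5310 to 11001 CPM at 28 days, 6906 to 18234 CPM at 14 days and 3671 to 6748 CPM in sham, and 8 of the 10 averaged higher than sham in each Ang II group. Relative to the mean of these markers in each library, the 14-day and sham libraries overlapped for all 4 SFRP genes, and the differences were 0.21 log2 for Sfrp2, -0.36 for Sfrp1, 0.55 for Sfrp4 and 1.10 for Frzb. At 28 days against sham Sfrp1 lay lower without overlap (-0.91 log2), while Sfrp2 (-0.51), Sfrp4 (0.33) and Frzb (-0.28) overlapped. At 28 days against 14 days Sfrp2 (-0.71 log2) and Frzb (-1.39) lay lower without overlap, while Sfrp1 (-0.55) and Sfrp4 (-0.22) overlapped.

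The nearest patterns to the SFRP genes were found in the same way. Over the 9 libraries r was 0.91 between Sfrp1 and Olfml2b, 0.94 between Sfrp2 and Mt2 and 0.96 between Sfrp4 and Stam2. Mmp3, a matrix metalloproteinase, was the next nearest to Sfrp4 at 0.94, and Frzb was nearest to Emp3 at 0.98.

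Wnt5a, a ligand of the noncanonical branch, differed little in CPM. It was 13.1, 8.17 and 12.7 CPM at 28 days, 10.7, 8.21 and 12.3 CPM at 14 days and 13.6, 9.01 and 19.7 CPM in sham (Entrez 22418, chromosome 14, 28504543 to 28527448). The groups overlapped, with log2 differences from sham of -0.32 ± 0.34 at 28 days and -0.44 ± 0.34 at 14 days. Relative to the mean of the fibroblast markers, Wnt5a lay below sham without overlap, at -0.93 log2 at 28 days and -1.25 log2 at 14 days. Relative to the smooth muscle markers it lay 2.0 log2 above sham at 28 days without overlap, as most genes did. At 14 days that difference was 0.73 log2 with overlap. Axin2, a scaffold of the beta-catenin destruction complex and a common readout of canonical signalling, was 12.2, 9.53 and 10.2 CPM at 28 days, 9.67, 2.09 and 17.0 CPM at 14 days and 8.63, 14.2 and 14.4 CPM in sham (Entrez 12006, chromosome 11, 108917828 to 108950783). Its highest and lowest libraries were both at 14 days, and the log2 difference from sham was -0.22 ± 0.62 at 28 days and -0.38 ± 0.62 at 14 days. The low value of 2.09 CPM, 29 reads, was 14-day replicate 2, and without that library the 14-day difference was 0.12 log2. Without 14-day replicate 3, the highest, it was -1.08 log2. Fat markers were also lowest in 14-day replicate 2. White fat markers summed to 2050 CPM there, against 5712 to 11115 CPM at 28 days and 6722 to 9838 CPM in sham. Brown fat markers summed to 911 CPM there, against 1615 to 4493 CPM at 28 days and 3726 to 8298 CPM in sham. The part of fat in the Axin2 level was not tested. Tshr, the thyrotropin receptor, was most like Axin2 over the 9 libraries (r = 0.99), at 19.3 ± 3.54 CPM at 28 days, 16.6 ± 12.3 CPM at 14 days and 21.7 ± 5.55 CPM in sham.

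Lrp4, a receptor that binds sclerostin in bone and agrin at the neuromuscular junction, had the lowest mean of the 10 in CPM per kb of exon in every group. It was 3.94, 5.73 and 4.10 CPM at 28 days, 6.10, 11.3 and 3.26 CPM at 14 days and 3.41, 4.86 and 3.92 CPM in sham (Entrez 228357, chromosome 2, 91457456 to 91513901). The groups overlapped, with log2 differences from sham of 0.18 ± 0.46 at 28 days and 0.76 ± 0.46 at 14 days, and the 14-day difference was 0.22 without 14-day replicate 2 and 1.10 without 14-day replicate 3. The 2 libraries richest in skeletal muscle transcripts had 3.94 and 5.73 CPM of Lrp4.

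**Figure D3:**
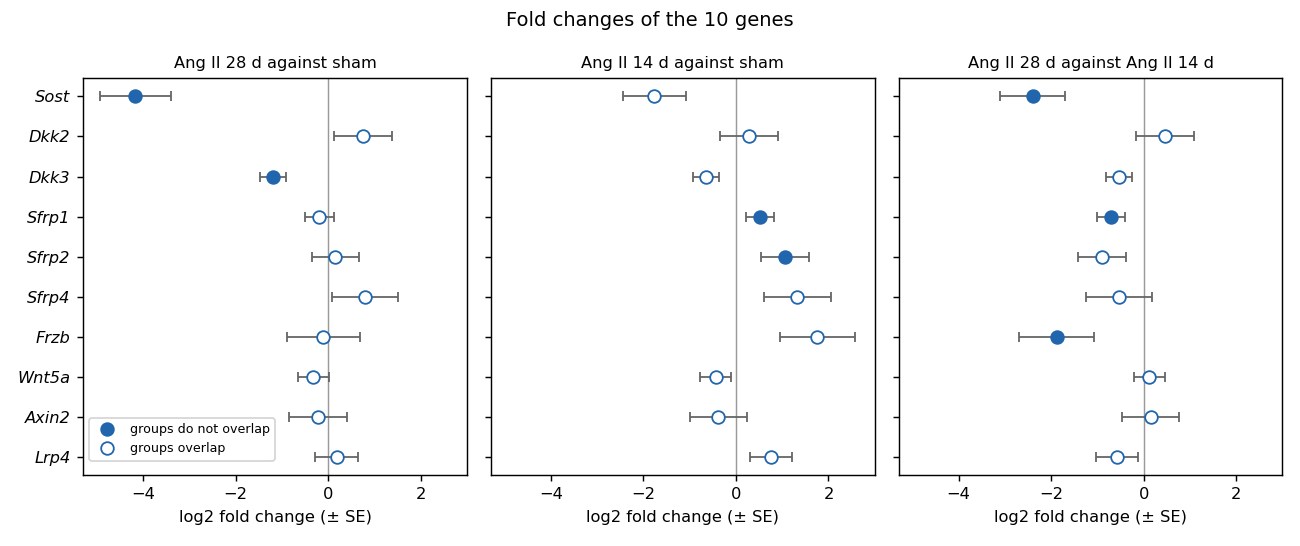
Log2 fold changes ± SE of the 10 genes in 3 comparisons; filled points mark genes whose groups did not overlap. Sost stands at -4.17 at 28 days and -1.77 at 14 days against sham, and the 4 SFRP genes are positive at 14 days and mixed in sign at 28 days, between -0.19 and 0.80.

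Set side by side per length of exon sequence, the levels of the 10 genes changed their order. In CPM per kb of exon, Sost was the highest in sham at 137 ± 74.2, followed by Dkk3 at 79.9 ± 8.34 and Sfrp2 at 52.0 ± 23.0; Sost and Dkk3 lay within their spread of each other. At 28 days Sfrp2 was highest at 57.8 ± 25.7 CPM per kb, followed by Sfrp4 at 36.7 ± 16.9 and Dkk3 at 35.1 ± 2.46, within their spread, and Sost was at 7.62 ± 3.79. At 14 days Sfrp2 led at 108 ± 49.1 CPM per kb, with Sfrp4 at 53.0 ± 35.2, Dkk3 at 50.9 ± 20.5 and Sost at 40.1 ± 26.0 not distinct from each other. Axin2, Wnt5a, Dkk2 and Lrp4 were at most 2.77 CPM per kb in every group.

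Counted over the 10 genes, groups did not overlap for 2 at 28 days against sham, Sost and Dkk3, both lower, where 21.7% of all genes tested did not overlap (9.47% lower). For 14 days against sham these were Sfrp1 and Sfrp2, both higher, where the share over all genes was 26.1% (12.6% higher). For 28 days against 14 days they were Sost, Sfrp1 and Frzb, all lower, against 10.1% of all genes (5.71% lower, 4.35% higher). The first 2 comparisons share the sham libraries. The median log2 fold change of the 10 was -0.15 at 28 days, 0.40 at 14 days and -0.56 between the Ang II groups, beside -0.08, -0.07 and -0.05 over all genes. As the genes were chosen with these values known, nothing is read from the counts.

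**Figure D4:**
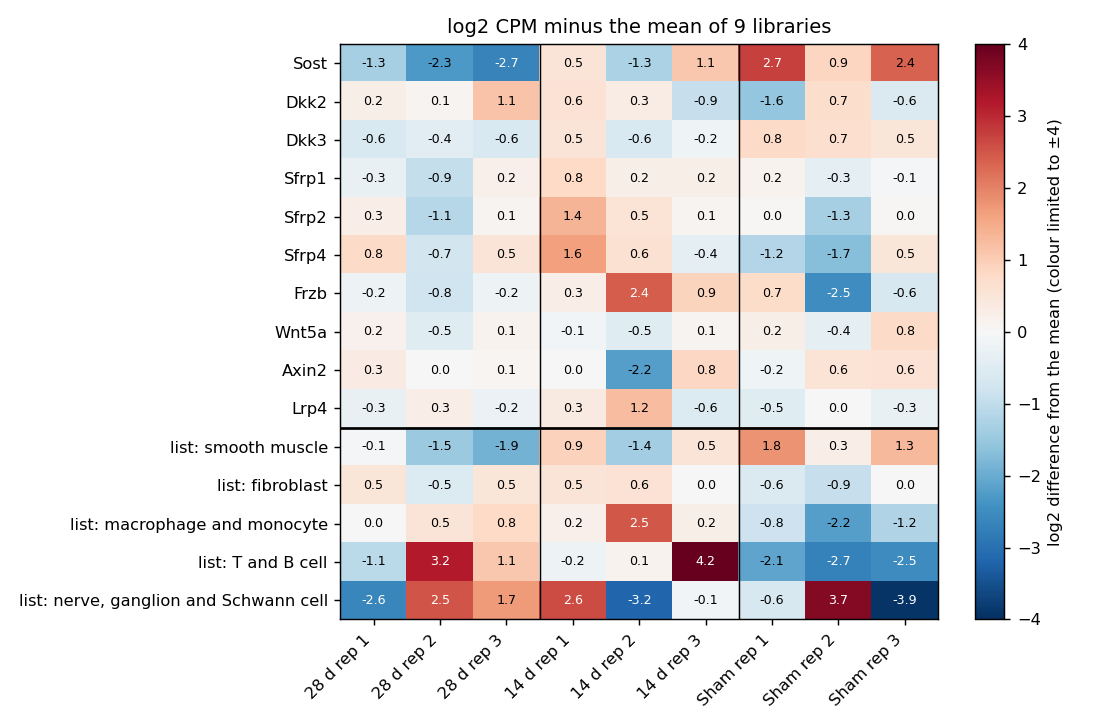
Log2 CPM of the 10 genes and mean log2 CPM of 5 marker lists, each minus its mean over 9 libraries, with 28-day libraries on the left, then 14-day and sham libraries. Sost and the smooth muscle list are above their mean in all 3 sham libraries and below it in all 3 28-day libraries, and Frzb and the macrophage list peak in 14-day replicate 2.

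Other genes of the Wnt pathway, 106 in 7 lists, of which 89 passed the filter on low counts, were compared between the same groups. At an adjusted p of 0.05, edgeR's quasi-likelihood test called 0 of the 89 in each comparison and 0% of all 14751 genes. At an unadjusted p under 0.05, 3 were higher and 11 lower at 28 days against sham, where all genes gave 7.98% higher and 5.88% lower. At 14 days against sham 10 were higher and 6 lower, with 13.1% and 10.4% over all genes, and at 28 days against 14 days 1 was higher and 6 lower, with 3.86% and 2.26% over all genes. In either direction these shares over all genes were 13.9% at 28 days, 23.5% at 14 days and 6.12% between the Ang II groups. DESeq2 at an adjusted p of 0.05 called 8 of the 89 at 28 days and 6.6% of all genes (3.9% higher, 2.7% lower). It called 10 at 14 days and 13.4% of all genes (8.61% higher, 4.79% lower), and 1 between the Ang II groups and 0.8% of all genes (0.59% higher, 0.21% lower).

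The 4 pathway genes with the smallest p at 28 days against sham were all lower and had groups that did not overlap (edgeR adjusted p = 0.203 for each). Fzd2, a Wnt receptor, was 19.8, 14.5 and 21.7 CPM at 28 days against 87.6, 32.9 and 63.4 CPM in sham (log2 -1.71 ± 0.35). Lgr6, a receptor for R-spondins, was 26.1, 12.6 and 18.0 CPM against 312, 63.7 and 203 CPM (log2 -3.35 ± 0.74). The ligand gene Wnt16 was 1.64, 1.65 and 1.29 CPM against 12.1, 4.86 and 10.7 CPM (log2 -2.59 ± 0.58). Wif1, a secreted Wnt inhibitor, was 0.328, 0.932 and 0.759 CPM against 25.6, 2.07 and 15 CPM (log2 -4.36 ± 0.98), from as few as 3 reads at 28 days. In each of these genes sham replicate 2, which also had the lowest smooth muscle level of the sham group, was the lowest sham library.

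At 14 days against sham the 4 with the smallest p were Myc, Ptk7, Lgr6 and Ccn4. Myc, a growth-promoting transcription factor and Wnt target, was 18.9, 23.0 and 34.6 CPM at 14 days against 8.95, 6.29 and 5.87 CPM in sham (log2 1.86 ± 0.35, edgeR adjusted p = 0.117). Ptk7, a co-receptor of planar polarity signalling, was 4.62, 20.4 and 3.80 CPM against 1.60, 1.86 and 0.979 CPM (log2 2.69 ± 0.68, edgeR adjusted p = 0.117). Ccn4, a matricellular Wnt target also called Wisp1, was 12.8, 50.7 and 10.4 CPM against 5.33, 4.94 and 5.34 CPM (log2 2.24 ± 0.65, edgeR adjusted p = 0.124), and Lgr6 was 31.0, 11.7 and 58.3 CPM (log2 -2.52 ± 0.72, edgeR adjusted p = 0.124). The highest 14-day library of Ptk7 and Ccn4 was replicate 2, as for Frzb. Between the Ang II groups Wnt16, Ror1, Fzd2 and Fzd7 had the smallest p and were lower at 28 days than at 14 days by log2 -2.23, -1.08, -0.99 and -0.82 (edgeR adjusted p = 0.769 for each).

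**Figure D5:**
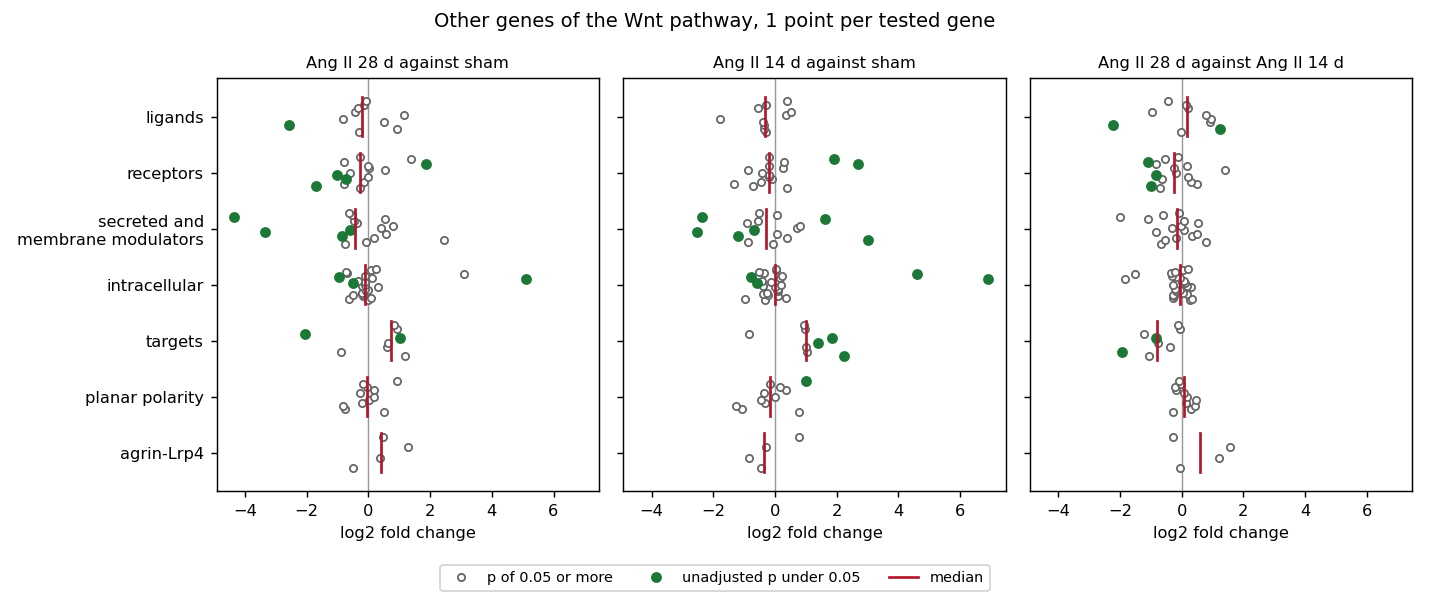
Log2 fold changes of 89 other genes of the Wnt pathway by role in 3 comparisons, 1 point per gene, with the median of each list as a line and filled points at an unadjusted p under 0.05. The target list has a median of 1.02 at 14 days and 0.72 at 28 days against sham, and edgeR calls 0 genes after adjustment, where DESeq2 calls 3 targets higher at 14 days and 1 lower at 28 days against sham.

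Most genes of the canonical target list averaged above sham in both Ang II groups, several of them with overlap. They were lower at 28 days than at 14, and all were short of the adjusted threshold in edgeR. Axin2, the common readout described above, is not in that list and averaged below sham with overlap. Its log2 difference was -0.22 ± 0.62 at 28 days and -0.38 ± 0.62 at 14 days. Of the 8 target genes tested, 7 had a positive log2 fold change at 14 days and 6 at 28 days against sham, beside 45.2% and 40.8% of all genes. At an unadjusted p under 0.05 in edgeR, 3 were higher at 14 days, namely Myc, Ccn4 and Cd44. At 28 days 1 was higher, Myc, and 1 was lower, Nkd1. Groups lay above sham without overlap for Myc, Ccn4 and Cd44 at 14 days and for Myc and Ccn4 at 28 days. Over all genes 12.6% and 12.2% did so. Nkd1 lay below sham without overlap at 28 days, as did 9.47% of all genes. At 28 days against 14 days 0 of the 8 were positive, with a median of -0.80 log2, beside 44.9% of all genes. As the lists were chosen with earlier results of these data known, nothing is read from these counts. Nkd1, an inhibitor induced by the pathway, was 21.5, 10.5 and 8.73 CPM at 28 days, 52.4, 9.36 and 33.5 CPM at 14 days and 83.4, 36.0 and 49.9 CPM in sham (log2 -2.06 ± 0.65 at 28 days, edgeR adjusted p = 0.239). Nkd2, its paralog, averaged 8.45 ± 3.31 CPM at 28 days, 8.82 ± 6.03 CPM at 14 days and 4.47 ± 0.689 CPM in sham. Nkd2, Ccn4, Ccn5, Ccnd1 and Cd44 were highest in 14-day replicate 2, the library richest in macrophage and monocyte markers. Myc was highest in 14-day replicate 3, the richest in T and B cell markers. Tnfrsf19 was highest in 14-day replicate 1 and Nkd1 in sham replicate 1. The part of those cells in the target levels was not tested. Ctnnb1, which encodes beta-catenin, averaged 362 ± 57.3 CPM at 28 days, 422 ± 63.2 CPM at 14 days and 391 ± 48.5 CPM in sham, and the co-receptors Lrp5 and Lrp6 had overlapping groups throughout, with log2 differences from sham between -0.19 and 0.27.

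Lef1 and Tcf7, TCF/LEF factors that lymphocytes also express, were highest in the libraries richest in lymphocyte markers. Lef1 was 0.657, 19.2 and 4.56 CPM at 28 days, 0.841, 2.38 and 83.6 CPM at 14 days and 0.107, 0.215 and 0.356 CPM in sham (log2 6.92 ± 2.16 at 14 days, edgeR adjusted p = 0.133). Tcf7 was 5.25, 68.1 and 21.4 CPM at 28 days, 6.80, 10.4 and 252 CPM at 14 days and 2.34, 6.22 and 2.4 CPM in sham. The 7 T and B cell markers summed to 32.0, 805 and 136 CPM at 28 days, 68.3, 68.9 and 1284 CPM at 14 days and 17.4, 9.01 and 10.3 CPM in sham, and the part of lymphocytes in Lef1 and Tcf7 was not tested. Agrn, which encodes the Lrp4 ligand agrin, averaged 75.0 ± 14.3 CPM at 28 days, 77.7 ± 19.7 CPM at 14 days and 106 ± 21.6 CPM in sham. Its partner kinase gene Musk was 3.72, 1.93 and 1.21 CPM in 28-day replicates 1 to 3. Skeletal muscle markers summed to 13528, 4461 and 95.1 CPM in those libraries. Elsewhere Musk was at most 2.29 CPM, in sham replicate 2. The part of skeletal muscle in the Musk level was not tested.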

How the data were processed

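RNA of 9 aortic libraries was extracted with TRIzol and made into mRNA libraries with an MGIEasy kit, per the labels. The deposited values are expected counts per gene, 1 file per library, with 9.77% to 11.0% of genes not at a whole number. HISAT2 2.2.1, Bowtie2 2.4.5, RSEM 1.3.1 and GRCm38.p6 are named in the submitters' processing notes; the sources used here do not give the role of each, nor strandedness. Entrez IDs were matched to RefSeq GRCm38.p6 for 18775 of 18830 genes. Counts were rounded, filtered by filterByExpr (14751 genes), scaled by TMM and fitted with edgeR 4.0.16 (quasi-likelihood, robust, 1 coefficient per group, all 9 libraries), with Benjamini-Hochberg adjustment over all genes and a threshold of 0.05. The SE is the log2 fold change over the square root of F. The fit was tested on simulated data. Log2 CPM used a prior count of 2. CPM per kb used exon lengths of GENCODE M21, since the files hold no FPKM; the planned FPKM alternative was not run.

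The members and lists were chosen with earlier results of these data known. Named genes are the 10 members, in each comparison the 4 pathway genes with the smallest p, and some of the fixed pathway and marker genes. For each member the 3 genes with the highest r were found among tested genes of at least 1 CPM. Only some of these are named, and none for Dkk2, Wnt5a and Lrp4. Other named genes, and the levels relative to marker lists, were chosen after their values were seen. Alternatives were DESeq2 1.42.0, RLE factors, other filters, the 2 compared groups alone, a replicate block, each library left out and removal of the 3 nerve-rich libraries. That removal was not planned in advance, and it keeps 28-day replicate 3, whose nerve, ganglion and Schwann cell markers summed to 1076 CPM. Replicate numbers were not treated as pairs. Wnt3a was not analysed here.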

Additional observations from a re-analysis of the deposited data

How the results depend on the processing

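The edgeR fit called 0 genes in each comparison, with 2045 at 28 days, 3465 at 14 days and 903 between the Ang II groups at an unadjusted p under 0.05. DESeq2 called 973 genes at 28 days against sham (575 higher, 398 lower), 1977 at 14 days (1270 higher, 707 lower) and 118 between the Ang II groups (87 higher, 31 lower), and 8, 10 and 1 of the pathway genes. With the replicate block, and with the 2 compared groups alone, 1 gene was called at 14 days against sham, and it was higher; the block changed no other count. Same-numbered libraries had correlations of deviations from -0.55 to 0.65, so the numbers were not taken as pairs. With 1 library left out, the count at 28 days against sham ran from 0 to 7: 5 genes, all lower, without sham replicate 2 and 7, all higher, without 28-day replicate 3. The median of the members at 14 days ran from 0.15 (without 14-day replicate 1) to 0.61, beside -0.24 to 0.02 at 28 days. The causes were not tested.

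Of 480 member fold changes under alternatives, 476 stayed within 1 SD of the reported value. That SD is the spread of log2 CPM between replicates of the 2 compared groups, and some alternatives left out a library of the group not compared. The count is therefore a loose measure and can include a change of sign. Frzb at 28 days against sham went from -0.11 to 0.90 log2 without sham replicate 1 and still counted as within it. Of 30 pairs of member and comparison, 20 kept their sign in all 16 alternatives, Sost and Dkk3 in all 3 comparisons among them. The sign changed at least once for Sfrp1, Sfrp2, Frzb, Wnt5a and Lrp4 at 28 days, Dkk2 and Axin2 at 14 days, and Sfrp4, Wnt5a and Axin2 between the Ang II groups. Sost ranged from -4.65 to -3.79 log2 at 28 days, from -2.29 to -1.33 at 14 days and from -2.87 to -1.88 between the Ang II groups. The number of libraries, 3 a group, and the spread between them, a common dispersion of 0.263, limit the precision. The lowest count behind a library's value was 22 for Dkk2, 29 for Axin2, 32 for Lrp4, 63 for Frzb, 114 for Wnt5a and 129 for Sost.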
